A study of Mus musculus with 30 samples.

Results

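The genes described here encode albumin and 9 other proteins that the liver secretes into plasma, where they carry lipids, hormones, vitamins, metals and heme. They were chosen by symbol, as Alb, Ttr, Rbp4, Trf, Hpx, Ahsg, Gc, Afm, Ambp and Serpina6, and all 10 were found once each among the 14173 genes of the deposited tables. Their expression was compared across 5 diets, both as a normalized count and as a percentage of all counted reads of a liver.

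Liver RNA came from 30 male C57BL6/J mice aged 6 months, 6 per diet, each housed alone and fed its diet for 12 weeks. The Cas-20% diet (NP in the labels) held 20% casein with 0.57% methionine and 0.41% cysteine by weight, and the Cas-5% diet (LP) held 5% casein with 0.15% and 0.10%. The Soy-20% diet (20Soy) held 20% soy protein with 0.22% of each amino acid. Methionine and cysteine were added to it in the Soy-20% + SAA diet (20Soy_SAA), to 0.58% and 0.41%, where SAA stands for sulfur amino acids. The Soy-10% diet (10Soy), 11.5% soy protein by its label, held 0.13% of each. All mice had first received a casein or soy control diet, matched to the protein source they were later fed. Restriction lowered total protein and sulfur amino acids together, so those components cannot be told apart in the comparisons between restricted and control diets, and bulk liver RNA does not separate fewer hepatocytes from less mRNA per hepatocyte.

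Albumin is the most abundant protein of plasma, holds water in the circulation and carries fatty acids, bilirubin and many drugs. Hepatocytes make most of the circulating carriers, and the plasma levels of albumin, transthyretin and retinol-binding protein are used in nutrition as markers of protein supply. Several of these proteins fall in plasma during inflammation, while hemopexin rises in rodents.

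Alb, Afm and Gc belong to the albumin family and lie on chromosome 5. In GRCm38, Alb (ENSMUSG00000029368) spans chr5:90460897-90476602 on the plus strand, Afm (ENSMUSG00000029369) follows at chr5:90518932-90553543 on the same strand, and Gc (ENSMUSG00000035540) lies at chr5:89417522-89457898 on the minus strand. Between the ends of Alb and Afm are 42329 bases, and between those of Gc and Alb 1002998. The 250 bases before the transcription start that RefSeq gives each are shown because these 3 members are neighbours of 1 gene family. The RefSeq start lies 27 bases before the deposited start of Alb and 17 bases inside the deposited span of Afm. The sequences are from RefSeq (GRCm38.p6), at chr5:90460620-90460869 for Alb, chr5:90518699-90518948 for Afm, and chr5:89457899-89458148 on the minus strand for Gc. Capitals mark matches on either strand to CCAAT (bound by NF-Y) and TTANNTAA (part of the sites of C/EBP and PAR bZIP factors).
Alb: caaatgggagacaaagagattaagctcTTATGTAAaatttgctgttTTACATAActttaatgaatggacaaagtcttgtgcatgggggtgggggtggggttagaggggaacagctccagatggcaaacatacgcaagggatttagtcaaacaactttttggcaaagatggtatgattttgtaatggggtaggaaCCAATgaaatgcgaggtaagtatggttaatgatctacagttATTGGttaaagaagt
Afm: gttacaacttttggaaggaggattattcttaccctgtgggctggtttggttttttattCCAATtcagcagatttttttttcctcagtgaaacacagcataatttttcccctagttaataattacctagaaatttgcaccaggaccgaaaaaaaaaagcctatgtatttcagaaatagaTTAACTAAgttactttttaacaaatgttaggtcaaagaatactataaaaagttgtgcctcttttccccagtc
Gc: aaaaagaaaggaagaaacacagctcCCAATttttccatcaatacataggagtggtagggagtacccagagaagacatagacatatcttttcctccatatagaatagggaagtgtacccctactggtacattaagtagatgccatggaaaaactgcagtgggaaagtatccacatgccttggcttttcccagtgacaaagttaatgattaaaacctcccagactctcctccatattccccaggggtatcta
RefSeq windows of 300 bases, reaching 50 bases past the start, matched 7 of the members, with a pair of windows for Rbp4. TTANNTAA occurred in the windows of Alb and Afm, 2 of these 8, and in 6.0% of all 32851 windows of that length. In the windows of Alb and Afm it overlapped no CCAAT match. CCAAT, a common letter string at 37.4% of all windows, occurred in 7 of 8. Of the other motifs searched, TGTTTNC (bound by FOXA) was in 4 of 8 windows and in 20.5% of all. TATAAA, a core promoter element, was in 2 of 8 and in 13.6%. CAAAGTNCA (bound by HNF4) was in 1.41% of all windows and in no member window.

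Each liver gave between 7694015 and 14565542 counted reads. All 8 hepatocyte markers were in the table, and none of the 3 adipocyte markers was. Under casein restriction 1 of the 8 hepatocyte markers rose and 4 fell (median log2 fold change −0.44), and 4 of 5 red blood cell markers fell (median −0.62). Pancreatic acinar markers reached 0.0648% of reads in 1 Soy-10% liver, beside a median of 0.00221% in that diet. Soy-20% + SAA livers 3 to 6 stood apart from all other libraries in how expression depended on GC content at the 3′ ends of transcripts (their last 200 bases), fitted per library over 11967 genes. The fitted slope was 0.0512 to 0.175 log2 units per 10% GC in those 4 livers and −0.0562 to 0.0275 in the other 26, so counts of members called against this diet are also given without them. Such fits keep few livers of that diet and can call fewer genes, so nothing is concluded from a lost call alone. In Cas-5% livers, mitochondrially encoded genes took 9.12 to 11.8% of reads, below the 11.8 to 15.1% of Cas-20% livers. Summed stellate and endothelial cell markers were higher in Cas-5% livers, at 0.0514 to 0.0676% against 0.039 to 0.0511% of reads. The part of these shifts in the results was not tested.

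Across all 5 diets, 9 of the 10 genes differed (edgeR quasi-likelihood F test, adjusted p of 0.05 or less), against 43.4% of the 12561 genes tested. Ttr was the exception, with an adjusted p of 0.19. Without Soy-20% + SAA livers 3 to 6, 6 of the 10 were called, against 26.2% of the 13097 genes tested.

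**Figure D1:**
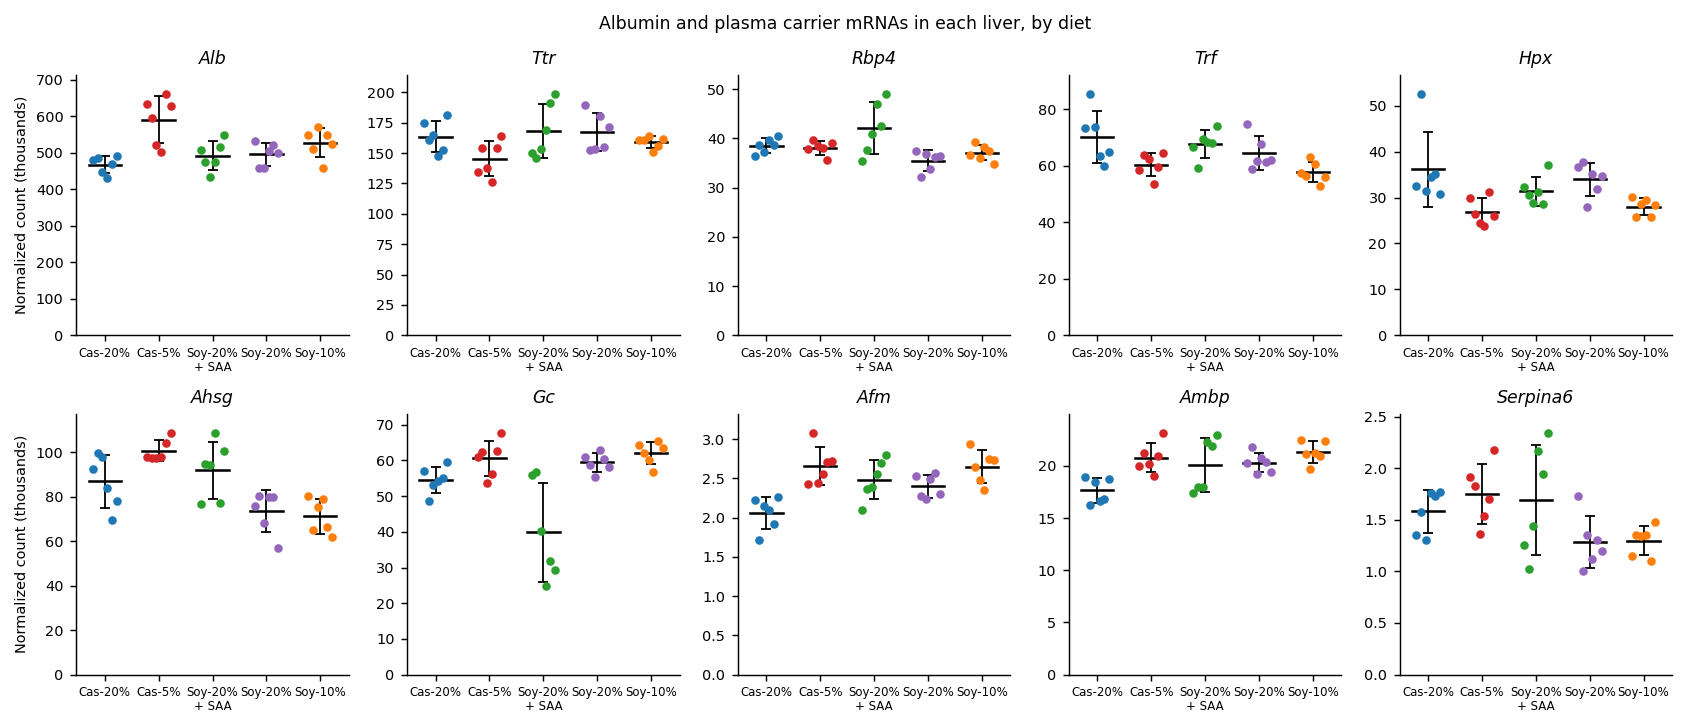
Normalized counts (divided by 1000, linear axes from 0) of each gene in all 30 livers by diet. Points are livers, the horizontal line is the mean and the error bar is 1 SD. Alb, Afm and Ambp sit higher in all 6 Cas-5% livers than in any Cas-20% liver, and Gc is low in 4 Soy-20% + SAA livers.

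The comparison of Cas-5% with Cas-20% asked how the carrier mRNAs responded to casein restriction. Alb, Afm and Ambp rose and Hpx fell, so 4 of 10 members changed (edgeR), against 24.9% of the 12076 genes tested. The median log2 fold change of the 10 was 0.16, beside 0.02 for all genes. Alb, Afm and Ambp were also the 3 members whose livers did not overlap between those diets, which held for 12.9% of all genes tested. With the GC slope as a covariate, 4 members were called as higher and 0 as lower, against 22.2% of all genes called. With scaling to the library total alone the counts were 6 and 0, against 38.6% of all genes. Under that scaling 3849 genes rose and 812 fell, and the median gene rose by 0.195.

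Alb transcripts rose under casein restriction. Normalized Alb counts had a minimum of 430359, a median of 475029 and a maximum of 490920 in Cas-20% livers, and 502753, 611031 and 661222 in Cas-5% livers. The log2 fold change was 0.35 (SE 0.0938, adjusted p = 0.011), a 1.27-fold rise, and every Cas-5% liver was above every Cas-20% liver. It was called in all 20 alternative fits, with adjusted p from 0.00015 to 0.047. The soy diets lay between. Soy-10% livers had 458550 to 570910 (median 536551), Soy-20% livers 457879 to 531705 (median 502252) and Soy-20% + SAA livers 432113 to 548065 (median 490877). Soy restriction gave a log2 fold change of 0.10 (SE 0.0886, adjusted p = 0.47) against Soy-20% + SAA and of 0.09 (SE 0.0739, adjusted p = 0.70) against Soy-20%, so no change was detected there. The first was 0.10 (adjusted p = 0.71) without Soy-20% + SAA livers 3 to 6. In order of mean, Cas-5% was highest, then Soy-10%, Soy-20%, Soy-20% + SAA and Cas-20%, and the livers of each diet overlapped those of the next. The casein effect on Alb exceeded the soy effect by 0.25 (SE 0.116, adjusted p = 0.18), a difference that did not pass the test.

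Afm encodes afamin, an albumin relative that carries vitamin E and Wnt proteins. Afm had normalized counts of 1718 to 2259 (median 2124) in Cas-20% livers and 2429 to 3077 (median 2634) in Cas-5% livers. All 6 restricted livers were above all 6 controls, with a log2 fold change of 0.38 (SE 0.0791, adjusted p = 0.0020). Against Soy-20%, Soy-10% livers were 0.14 higher on the log2 scale (SE 0.0632, adjusted p = 0.36), and against Soy-20% + SAA 0.09 higher (SE 0.0789, adjusted p = 0.44), or 0.24 (adjusted p = 0.23) without livers 3 to 6 of the latter. The casein and soy effects on Afm differed by 0.28 (SE 0.112, adjusted p = 0.11).

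Gc encodes the vitamin D-binding protein, which also clears actin from plasma. Casein restriction moved Gc by a log2 fold change of 0.17 (SE 0.0782, adjusted p = 0.14), with 48644 to 59432 normalized counts (median 54664) in Cas-20% livers and 53728 to 67660 (median 61578) in Cas-5% livers. The largest fitted change of a member in the 3 restriction comparisons was that of Gc against Soy-20% + SAA, and it rested on the libraries that stood apart. Soy-20% + SAA livers 3 to 6 had 24711 to 40198 normalized counts, livers 1 and 2 of the same diet 55889 and 56884, and the 24 livers of the other diets 48644 to 67660. Soy-10% livers ranged from 56790 to 65384 (median 62791) and Soy-20% livers from 55396 to 62994 (median 59513).

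The comparison of Soy-10% with Soy-20% + SAA asked the same question for soy. Gc rose and Ahsg and Trf fell, so 3 of 10 members changed, against 17.0% of the 11983 genes tested. The median of the 10 was −0.13, beside −0.01 for all genes. No member had livers that did not overlap between these diets, beside 6.22% of all genes. The log2 fold change of Gc was 0.64 (SE 0.178, adjusted p = 0.027). Without Soy-20% + SAA livers 3 to 6 it was 0.13 (adjusted p = 0.48), and with the GC slope as a covariate 0.17 (adjusted p = 0.34), over alternatives that ran from 0.00089 to 0.48. In both of those fits 0 of the 10 members were called by edgeR, against only 2.54% and 3.07% of all genes tested. The first leaves few control livers, and the second adjusts for a slope that was high only in livers of the control diet. Both can therefore call fewer genes, and nothing is concluded from their lost calls alone. In each, 3 members had an unadjusted p under 0.05, and the medians of the 10 turned to 0.10 and 0.12. DESeq2 on all 12 livers called 3, against 17.7% of the genes it tested.

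**Figure D2:**
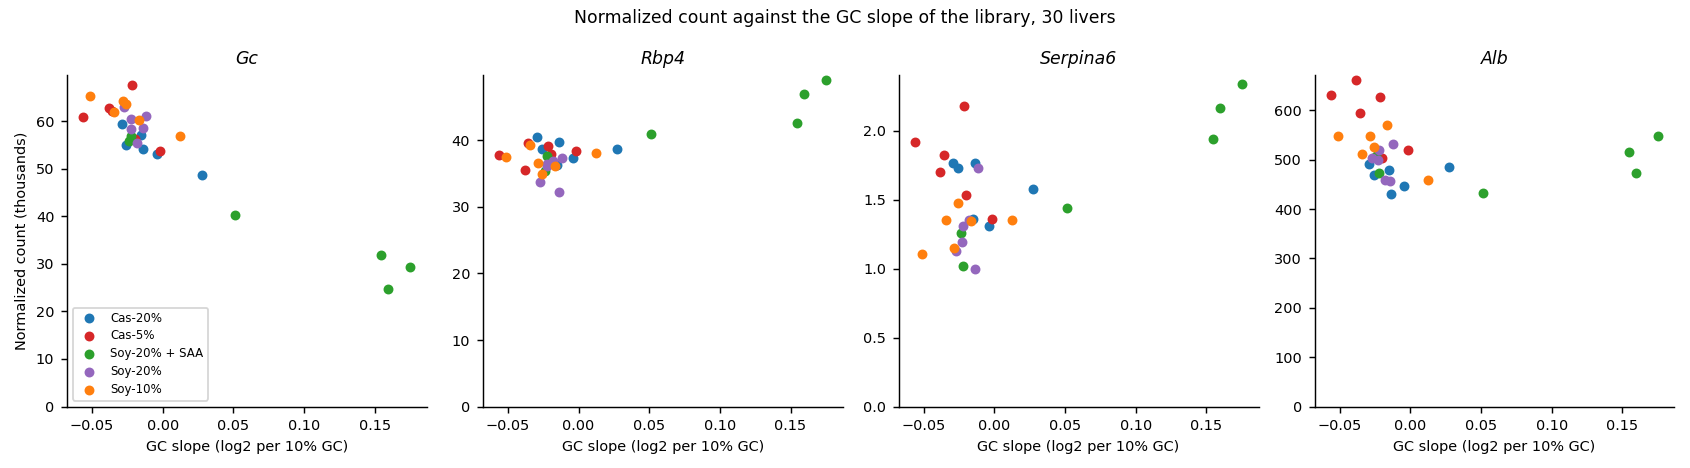
Normalized count (divided by 1000) of Gc, Rbp4, Serpina6 and Alb against the GC slope of the library (log2 units per 10% GC) in 30 livers, coloured by diet. The 4 Soy-20% + SAA livers with slopes of 0.0512 to 0.175 hold the lowest Gc and the highest Rbp4 counts of all livers, while their Alb counts lie within the range of the others.

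Against Soy-20%, the same restricted Soy-10% livers gave no called member (edgeR), against 0.866% of the 11897 genes tested. Of the 10, 3 had an unadjusted p under 0.05 (Hpx, Trf and Afm). DESeq2 called 1, Hpx, against 1.66% of the genes it tested. Gc was 0.06 higher on the log2 scale (SE 0.0589, adjusted p = 0.76) in this comparison. Both soy comparisons share the Soy-10% livers.

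**Figure D3:**
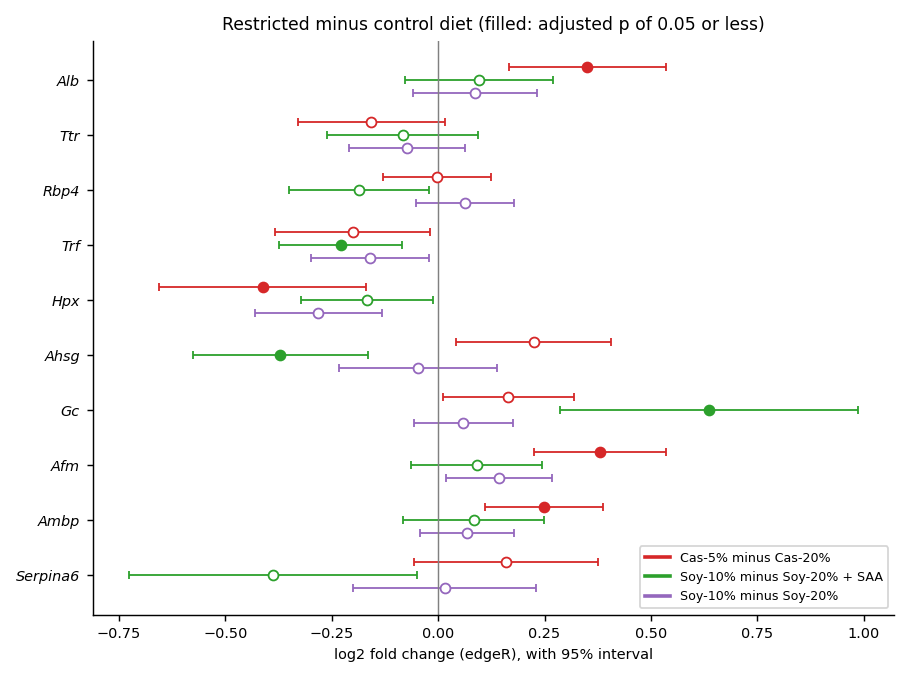
Log2 fold change of each gene, restricted minus control diet, with 95% intervals (normal approximation from the SE, slightly narrower than the test), for Cas-5% minus Cas-20%, Soy-10% minus Soy-20% + SAA and Soy-10% minus Soy-20%. Filled points passed an adjusted p of 0.05: Alb, Hpx, Afm and Ambp in the first, Trf, Ahsg and Gc in the second and none in the third.

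Among the carriers of hormones and vitamins, Ttr, Rbp4 and Serpina6 did not pass the test in either restriction. Ttr (ENSMUSG00000061808, chromosome 18) encodes transthyretin, which carries thyroxine and holds the retinol-binding protein in plasma. Its normalized counts ran from 147978 to 181254 (median 162790) in Cas-20% livers and from 126572 to 164417 (median 145949) in Cas-5% livers. The log2 fold change was −0.16 (SE 0.0878, adjusted p = 0.21), and under library-total scaling its direction turned. The 95% interval, a normal approximation from the SE, ran from −0.33 to 0.02. In the soy comparison Ttr gave −0.08 (SE 0.0904, adjusted p = 0.55), and that direction also turned without Soy-20% + SAA livers 3 to 6.

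Rbp4 (ENSMUSG00000024990, chr19:38116629-38125281), the carrier of retinol, had 36356 to 40571 normalized counts (median 38637) in Cas-20% livers and 35624 to 39643 (median 38222) in Cas-5% livers. The groups overlapped almost wholly. The log2 fold change was −0.00 (SE 0.0646, adjusted p = 0.99), with a 95% interval from −0.13 to 0.12. It was 0.18 (adjusted p = 0.0504) under library-total scaling, where the median gene also rose. Soy-20% + SAA livers 3 to 6 had 40946 to 49061, above the 32186 to 40571 of the 24 livers of other diets. Rbp4 differed by −0.19 (SE 0.0842, adjusted p = 0.13) in Soy-10% against Soy-20% + SAA and by 0.01 (adjusted p = 0.96) without those livers.

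Serpina6 (ENSMUSG00000060807, chr12:103646630-103657212) encodes corticosteroid-binding globulin. It varied widely, with 1019 to 2340 normalized counts (median 1690) among Soy-20% + SAA livers alone, of which livers 1 and 2 had 1019 and 1256. Its SD in that diet was 532 at a mean of 1693. Casein restriction gave a log2 fold change of 0.16 (SE 0.110, adjusted p = 0.32), from 1307 to 1767 (median 1654) in Cas-20% to 1359 to 2178 (median 1760) in Cas-5% livers. Soy restriction gave −0.39 (SE 0.173, adjusted p = 0.13), which turned to 0.18 (adjusted p = 0.48) without Soy-20% + SAA livers 3 to 6. Serpina6 also stands out in its coding sequence. Counting the start codon, it holds 20 methionine codons among 397, a percentage of 5.04 that is at percentile 98.4 among 12485 coding genes, and 3 cysteine codons. Alb holds 8 methionine and 36 cysteine codons among 608, and Gc 14 and 28 among 476.

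The carriers of iron and heme were Trf, Hpx and Ambp. Ambp (ENSMUSG00000028356, chr4:63143275-63154799) encodes a precursor that is cleaved into alpha-1-microglobulin, a scavenger of heme and radicals, and bikunin, a protease inhibitor. Its normalized counts were 16296 to 18916 (median 17648) in Cas-20% and 19050 to 23142 (median 20607) in Cas-5% livers, with no overlap. The log2 fold change was 0.25 (SE 0.0706, adjusted p = 0.016), and all 20 alternative fits called it. In soy livers Ambp was 0.08 higher (SE 0.0844, adjusted p = 0.52) against Soy-20% + SAA and 0.07 higher (SE 0.0563, adjusted p = 0.69) against Soy-20%. The first was 0.26 (adjusted p = 0.12) without Soy-20% + SAA livers 3 to 6.

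Hpx (ENSMUSG00000030895, chr7:105591613-105600137) encodes hemopexin, which binds free heme and delivers it to the liver. Hpx was the single member called as lower under casein restriction. Counts were 30732 to 52602 (median 33441) in Cas-20% livers and 23730 to 31122 (median 26174) in Cas-5% livers, and 5 of 6 restricted livers were below all controls. The log2 fold change was −0.41 (SE 0.124, adjusted p = 0.022). Without Cas-20% liver 2, which held the 52602, it was −0.28 (adjusted p = 0.024). Hpx lost its call without Cas-5% liver 4 (−0.38, adjusted p = 0.052), with the GC slope as a covariate (−0.31, adjusted p = 0.12) and under library-total scaling (−0.23, adjusted p = 0.11), over alternatives from 0.0031 to 0.12. Soy-10% livers had 25689 to 30203 counts (median 28484) and Soy-20% livers 27947 to 37727 (median 34975). That difference was −0.28 (SE 0.0758, adjusted p = 0.11 by edgeR and 0.019 by DESeq2, over alternatives from 0.019 to 0.30). It was called without Soy-20% liver 3, at −0.33 (adjusted p = 0.028). Against Soy-20% + SAA the Hpx difference was −0.17 (SE 0.0789, adjusted p = 0.15), and it was −0.17 (adjusted p = 0.35) without livers 3 to 6.

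Trf (ENSMUSG00000032554, chr9:103204001-103230444) encodes transferrin, the iron carrier of plasma. In Soy-10% livers it had 52824 to 63074 normalized counts (median 56949), in Soy-20% + SAA livers 59016 to 73869 (median 68265) and in Soy-20% livers 58985 to 74870 (median 61976). Trf was 0.23 lower in Soy-10% than in Soy-20% + SAA (log2 fold change −0.23, SE 0.0732, adjusted p = 0.045). The call held in 8 of 21 alternatives and was lost, among others, with a replicate block (adjusted p = 0.076) and the fit without Soy-20% + SAA livers 3 to 6 (−0.13, adjusted p = 0.53), over a range from 0.011 to 0.53. Against Soy-20% the Trf difference was −0.16 (SE 0.0708, adjusted p = 0.36). Casein restriction gave −0.20 (SE 0.0924, adjusted p = 0.13), with 59803 to 85420 counts (median 69163) in Cas-20% and 53513 to 64470 (median 61074) in Cas-5% livers.

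Ahsg (ENSMUSG00000022868, chr16:22891277-22899449) encodes fetuin-A, which keeps calcium phosphate in solution and inhibits the insulin receptor. Its normalized counts were 69635 to 99711 (median 88276) in Cas-20% and 97345 to 108666 (median 97969) in Cas-5% livers, a log2 fold change of 0.22 (SE 0.0932, adjusted p = 0.09). In Soy-10% livers they were 62052 to 80380 (median 70931), in Soy-20% + SAA livers 76567 to 108587 (median 94614), a log2 fold change of −0.37 (SE 0.105, adjusted p = 0.028). The fall was −0.27 (adjusted p = 0.28) without Soy-20% + SAA livers 3 to 6. Soy-20% livers had 57105 to 80324 counts (median 77904), and against them Soy-10% livers differed by −0.05 (SE 0.0945, adjusted p = 0.91). The casein effect exceeded the soy effect by 0.59 log2 units (SE 0.138, adjusted p = 0.011). Ahsg was the 1 member of 10 called in this test of the difference (edgeR), against 8.69% of the 12532 genes tested. The difference was 0.49 (adjusted p = 0.10) without Soy-20% + SAA livers 3 to 6 and was called in the other 32 of 33 alternatives, the lowest adjusted p being 0.0012.

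The control diets were compared to ask about the added sulfur amino acids and about the source of protein. Soy-20% + SAA minus Soy-20% gave no called member (edgeR), against 0.00838% of the 11932 genes tested. In that fit 3 members had an unadjusted p under 0.05 (Gc, Ahsg and Rbp4). DESeq2 called 1 member (Gc), against 7.46% of the genes it tested. The log2 fold changes were −0.58 for Gc (SE 0.183, adjusted p = 0.09), 0.31 for Ahsg (SE 0.112, adjusted p = 0.12) and 0.24 for Rbp4 (SE 0.0861, adjusted p = 0.12). One fit over all 30 livers called those 3, against 14.3% of all genes tested. Without Soy-20% + SAA livers 3 to 6 they were −0.07 for Gc (adjusted p = 0.90), 0.22 for Ahsg (adjusted p = 0.80) and 0.05 for Rbp4 (adjusted p = 0.95), over alternatives whose lowest adjusted p were 0.005, 0.029 and 0.013. Soy-20% + SAA minus Cas-20% likewise gave no called member, against 2.43% of the 11988 genes tested, with 2 at an unadjusted p under 0.05 (Afm and Gc). DESeq2 called 1 of the 10 (Afm) there, near the 10.4% of all genes it called. Afm was 0.27 higher on soy (SE 0.0863, adjusted p = 0.084), and Gc was 0.46 lower (log2 fold change −0.46, SE 0.184, adjusted p = 0.14). Without Soy-20% + SAA livers 3 to 6, Afm was 0.12 (adjusted p = 0.86) and Gc turned to 0.05 (adjusted p = 0.95). Those comparisons share the Soy-20% + SAA livers.

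As a share of the library, the 10 genes together took 8.30% ± 0.269 (SD, n = 6) of counted reads in Cas-20% livers and 10.6% ± 0.81 (SD, n = 6) in Cas-5% livers. The groups did not overlap, at 7.87 to 8.58% against 9.45 to 11.6%. The summed share was 8.68% ± 0.53 in Soy-20% + SAA, 8.76% ± 0.388 in Soy-20% and 9.15% ± 0.452 in Soy-10% livers. Alb made up most of the rise, from 4.14% ± 0.216 to 5.96% ± 0.601, while the other 9 went from 4.17% ± 0.132 to 4.63% ± 0.278. Counted without the mitochondrially encoded genes, whose share fell, the 10 took 9.63% ± 0.369 in Cas-20% and 11.8% ± 0.838 in Cas-5% livers.

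**Figure D4:**
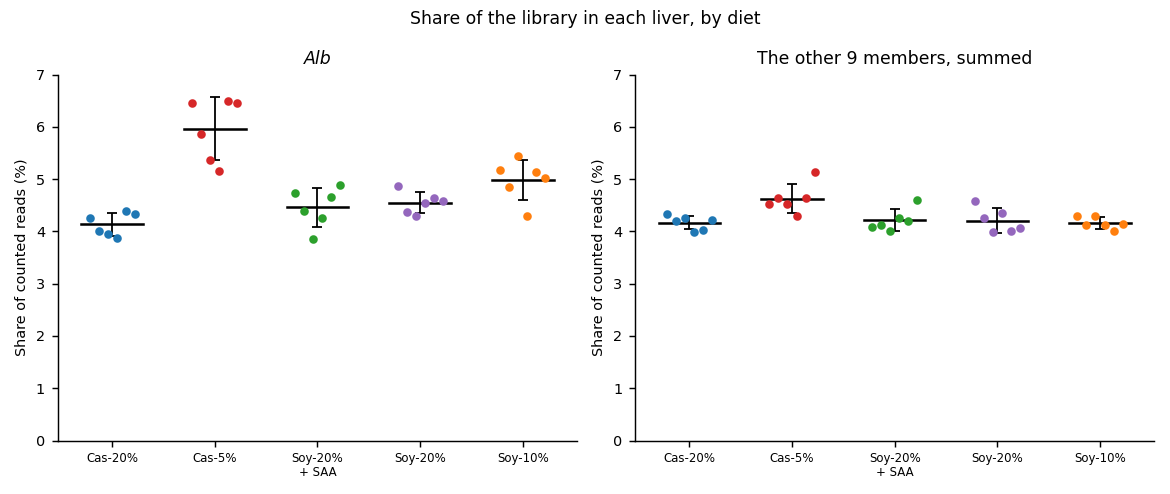
Percentage of counted reads on Alb (left) and on the other 9 genes summed (right) in each liver, by diet, on axes from 0. Points are livers, lines means and error bars 1 SD. Alb takes 5.15 to 6.49% in Cas-5% livers and 3.87 to 4.39% in Cas-20% livers.

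Shares of single members were compared by a two-sided exact permutation test of 6 livers against 6, adjusted over all genes tested. In the casein comparison 6 of 10 changed, all higher, against 35.0% of all genes. The log2 ratios were 0.53 for Alb, 0.55 for Afm, 0.43 for Ambp, 0.41 for Ahsg and 0.34 for Gc (adjusted p = 0.012 each by the exact test against no change, at its smallest raw p of 0.0022) and 0.18 for Rbp4 (adjusted p = 0.03). The median log2 ratio of all genes was 0.195, which lies above that of Rbp4 and below those of the others, a difference that was not tested. On the deposited normalized counts in place of shares, 3 of these calls were lost, those of Ahsg (0.21, adjusted p = 0.105), Gc (0.15, adjusted p = 0.119) and Rbp4 (−0.02, adjusted p = 0.743), where the lowest adjusted p over alternatives were 0.011, 0.011 and 0.014. Rbp4 also lost its call in shares counted without mitochondrially encoded genes (0.12, adjusted p = 0.084). In the soy comparison with Soy-20% + SAA, 1 of 10 changed, against 10.1% of all genes. That was Gc, from 0.363 to 0.587% of reads (log2 ratio 0.69, adjusted p = 0.033 by the exact test). Without Soy-20% + SAA livers 3 to 6 the Gc log2 ratio was 0.16 (adjusted p = 0.30 by the exact test). With so few control livers left, that test has too few splits to call genes in practice, so nothing is concluded from its lost call. The Gc call was also lost when any single Soy-10% liver was left out, though the log2 ratio stayed at 0.68 to 0.72. Over alternatives the adjusted p ran from 0.023 to 0.30.

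The members did not move as a block. Over the 24 livers without the Soy-20% + SAA diet, Pearson's r of log2 CPM (counts scaled to library size) was 0.846 for Gc with Afm, 0.846 for Afm with Ambp and 0.817 for Gc with Ambp. Alb correlated with Gc at 0.679 and with Afm at 0.665, and Trf with Hpx at 0.665. Hpx and Afm went opposite ways at −0.678, as did Trf and Afm at −0.541. Cas-20% liver 2 had the highest Hpx (52602) and Trf (85420) and the lowest Afm (1718) normalized counts of these 24 livers. The part of that liver in these correlations was not tested. Over all 30 livers Afm with Ambp stayed at 0.834, but Gc with Afm was 0.0194, Gc with Ambp −0.0921 and Alb with Gc 0.287, and Rbp4 with Gc was −0.786. These correlations are descriptions over livers that share diets and library composition.

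The genes most like Alb over 30 livers, among 12032 with a mean of at least 10 counts, included Rps16 (r = 0.752), which encodes a ribosomal protein, and Aldh1l2 (0.733), a mitochondrial folate enzyme. Over the 24 livers without Soy-20% + SAA they were Stt3b (0.807), a subunit of the oligosaccharyltransferase of the endoplasmic reticulum, Rps16 (0.797) and Rps3 (0.792). Serpina6 was most like Rnf186 (0.749), Ptp4a1 (0.743) and Rbp4 (0.727) over 30 livers, but most like Abcc2 (0.737), Kng2 (0.707) and Hgf (0.704) over 24.

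Other secreted plasma proteins moved in both directions under casein restriction. Of 37 tested, 9 rose and 9 fell, beside 24.9% of all genes called, with a median log2 fold change of −0.05 (0.02 for all genes). Serpina1d, an alpha-1-antitrypsin gene whose near-identical copies can share reads, fell by 0.90 on the log2 scale (SE 0.0934, adjusted p = 3e-06). Apoc3, an inhibitor of lipoprotein lipase, fell by 0.64 (SE 0.078, adjusted p = 1.5e-05), and Itih4, an inter-alpha-inhibitor heavy chain, rose by 0.71 (SE 0.085, adjusted p = 1.3e-05). In the comparison with Soy-20% + SAA 1 rose and 8 fell, beside 17.0% of all genes, with a median of −0.07, among them Serpina1d (−0.43, adjusted p = 0.0016), Apoe (−0.35, adjusted p = 0.017) and Kng1 (−0.30, adjusted p = 0.011). Against Soy-20% these were −0.17, −0.06 and −0.06, with adjusted p of 0.21, 0.81 and 0.80. The fits without Soy-20% + SAA livers 3 to 6 are not given for the genes of these lists.

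Receptors and partners of the carriers numbered 17 tested, of which 3 changed under casein restriction, all lower, a share below the 24.9% of all genes called. Stra6l, a liver receptor for retinol-binding protein, fell by 0.62 on the log2 scale (SE 0.0857, adjusted p = 5.3e-05). Tfrc, the transferrin receptor, fell by 0.60 (SE 0.189, adjusted p = 0.027) and Hmox1, which degrades heme, by 0.62 (SE 0.206, adjusted p = 0.037). Against Soy-20% + SAA, 2 were higher in Soy-10% livers, Slc40a1 and Hsd11b1, and 3 lower, beside 17.0% of all genes. Slc40a1, the iron exporter ferroportin, rose by 0.84 (SE 0.134, adjusted p = 0.0015) there and by 0.34 (SE 0.0765, adjusted p = 0.048) against Soy-20%. Hsd11b1, which regenerates active glucocorticoid, gave 0.37 (SE 0.0745, adjusted p = 0.0061) against Soy-20% + SAA and −0.01 (adjusted p = 0.98) against Soy-20%.

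Of 16 positive acute phase proteins, some of them also in the list of plasma proteins, 4 rose and 6 fell under casein restriction, beside 24.9% of all genes called, with a median of −0.09. Orm1, an orosomucoid gene with close paralogs, fell by 3.38 on the log2 scale (SE 0.280, adjusted p = 2.6e-07), from 6320 ± 717 to 599 ± 379 normalized counts (SD). Itih4 and Cp, the copper carrier ceruloplasmin, rose, Cp by 0.49 (SE 0.0736, adjusted p = 0.00012). Against Soy-20% + SAA 2 rose and 1 fell, beside 17.0% of all genes. Lbp, which binds lipopolysaccharide, rose by 0.39 (adjusted p = 0.0021), Hamp, which encodes the iron hormone hepcidin, rose by 0.63 (adjusted p = 0.035) and Serpina3n fell by 0.65 (adjusted p = 0.010). Against Soy-20% these were −0.04, 0.05 and −0.31, with adjusted p of 0.92, 0.96 and 0.25.

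Of 28 liver transcription factors known to act on these genes, 4 rose and 3 fell under casein restriction, a share near the 24.9% of all genes called, with a median of 0.11. Cebpa fell by 0.56 on the log2 scale (SE 0.0685, adjusted p = 1.5e-05), and the PAR bZIP factors Dbp and Tef fell by 1.43 (SE 0.254, adjusted p = 0.00054) and 0.53 (SE 0.109, adjusted p = 0.0018). Against Soy-20% + SAA 6 rose and 2 fell, beside 17.0% of all genes, with Cebpb at 0.92 (SE 0.161, adjusted p = 0.0026), Nr1h4 at 0.34 (adjusted p = 0.018) and Ppara at −0.52 (SE 0.108, adjusted p = 0.0073). Against Soy-20% these were 0.09, 0.09 and −0.08, with adjusted p of 0.85, 0.65 and 0.84.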

How the data were processed

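RNA from 30 livers was made into 3′ libraries with the Lexogen QuantSeq kit, sequenced on a NextSeq instrument and processed in the Bluebee QuantSeq pipeline. The aligner, counting program and annotation release are not given in the sources used here. The submitters' processing notes name GRCm38, mm10, R 4.0.3 and DESeq2 1.30. The deposited raw counts are reads per gene, made by the authors without normalization. The deposited normalized counts are a signal the authors made by dividing each library's counts by its DESeq2 size factor. Neither is scaled to gene length. All columns were matched to a labelled liver. Columns of comparisons were not used. Of 1718 genes without a symbol, 1684 received one from GENCODE M21, in which all 10 members had the deposited coordinates.

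Livers were grouped by diet as labelled. Each pair of diets was fitted on its 12 livers in R 4.3.3 with edgeR 4.0.16 (filterByExpr, TMM, quasi-likelihood F test, two-sided, Benjamini-Hochberg over all genes tested, called at 0.05), the difference of restriction effects on 24 livers and the 5 diets on 30. All 10 members passed the filter in each. Shares of counted reads were compared by an exact permutation test over all 924 splits, adjusted over all genes tested in place of the members alone. Alternatives were DESeq2 1.42.0, other scalings, no filter, a replicate block, the GC slope as a covariate, all livers in 1 fit, and leaving livers out. Coding sequences and the GC slope used GENCODE M21 transcripts, and promoters were RefSeq windows. Python 3.11.15 with scipy 1.17.1, numpy 2.4.6 and pandas 2.3.3 did the rest, and the test was checked on simulated counts.

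The members, the 4 lists and the tests were chosen with earlier results of these data known. Named from each list are the up to 3 genes with the smallest p in the casein and in the soy comparison. The 3 genes most like Alb and Serpina6 were named by Pearson's r, except where a gene is not reported here. Counts per library were 7694015 to 14565542, and each member had at least 923 counts in each liver, so the spread between livers sets the precision. The labels name no batch. The read length is 75 bases in the study's methods and 50 in the labels.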

Additional observations from a re-analysis of the deposited data

Results flagged for a closer look

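Hpx in Cas-20% liver 2 had a normalized count of 52602, while the other 5 livers of that diet lay between 30732 and 35178, so its gap to the nearest exceeded the limit of Dixon's test for 1 stray value. It was the 1 such case among 50 groups of 6 livers examined, where chance alone marks about 1 in 20. The Hpx difference under casein restriction was −0.28 (edgeR, adjusted p = 0.024) without that liver and −0.41 with it.

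Ahsg was the 1 member of 10 called in a test of the difference between casein and soy restriction, near the 8.69% of all genes called. The difference was 0.59 on the log2 scale (edgeR, SE 0.138, adjusted p = 0.011). Its soy side used the Soy-20% + SAA control, and against Soy-20% the Ahsg difference in Soy-10% livers was −0.05 (adjusted p = 0.91). Without Soy-20% + SAA livers 3 to 6 the difference was 0.49 (adjusted p = 0.10, over alternatives from 0.0012 to 0.10).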

How the results depend on the processing

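Members called were recounted under each alternative. A log2 fold change of at least 1 as a further criterion left 0 in the casein and soy comparisons and in the difference between them. Among all genes tested it left 420 of 12076, 308 of 11983 and 285 of 12532. Soy restriction gave 0 with the GC slope as a covariate, beside 3.07% of all genes tested. It gave 0 without Soy-20% + SAA livers 3 to 6, beside 2.54%. Without those livers the difference of effects also gave 0, beside 2.27%. The share test for soy gave 0 there too, but with so few control livers it could hardly call any gene. With these few controls the edgeR fits can also call fewer genes, so nothing is concluded from their lost calls alone. The difference of effects gave 5 under library-total scaling, beside 12.7% of all genes. DESeq2 called 1 in Soy-10% against Soy-20%, 1 for the addition of sulfur amino acids and 1 for protein source. Its shares of all genes were 1.66%, 7.46% and 10.4%. The fit over 30 livers called 3 for the addition and 2 for protein source, beside 14.3% and 18.6% of all genes.

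Leaving out 1 liver gave 3 to 5 calls for casein, 0 to 4 for soy, 0 to 1 against Soy-20%, 0 to 3 for the addition of sulfur amino acids, 0 to 2 for protein source, 1 to 3 for the difference and 7 to 9 for 5 diets, and 5 to 7 (casein) and 0 to 2 (soy) for shares. Soy calls fell to 0 without Soy-20% + SAA liver 6 or Soy-10% liver 5, and to 1 without Soy-20% + SAA liver 3, 4 or 5 or Soy-10% liver 1, 2 or 6. Calls for the addition of sulfur amino acids reached 3 and those for protein source 2 without Soy-20% + SAA liver 1. The difference reached 3 without Soy-20% + SAA liver 1 or 2. The share of all genes called is not given for these fits. Fewer or more member calls therefore cannot be told apart from fewer or more calls among all genes.

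Among directions that turned, the casein share of Rbp4 alone had been called. Under library-total scaling Ttr was 0.0212 and Rbp4 0.18 for casein, and the Rbp4 share was −0.0166 on deposited normalized counts. Leaving out 1 liver gave −0.0259 to 0.0163 for Rbp4. In soy restriction the covariate and the fit without Soy-20% + SAA livers 3 to 6 gave 0.11 and 0.10 for Ttr, 0.0086 and 0.0135 for Rbp4, and 0.19 and 0.18 for Serpina6. Serpina6 was −0.17 and −0.17 for the addition of sulfur amino acids. Without those livers Gc was 0.0512 for protein source and 0.0278 for the difference of effects, and Serpina6 −0.0298 for that difference. The cause was not tested.

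Livers with the same replicate number showed only weak correlations of their deviations, from −0.19 to 0.194. No pairing by number was seen in these values, and the livers were treated as unpaired. With a replicate block edgeR called 4 members for casein, 2 for soy, 1 for the difference and 8 over 5 diets, and 0 in each other comparison, and from 0 to 3 of 6 livers correlated best with their own number. By Spearman's rho the genes most like Alb over 30 livers were Rpl30, Mpc2 and Mvp in place of those named.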
